A study of Mus musculus with 2 samples.

Results

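Keratins and other intermediate filament genes were read in kidneys 24 h after ischemic injury, in mice with and without estrogen sulfotransferase (EST). The members were Krt7, Krt8, Krt18, Krt19, Krt20, Vim, Des and Lmna, 8 of the 18194 genes named on the array. They were chosen by gene symbol, as the probe sets for which the platform annotation gave one of these symbols and no other. This gave 17 of the 45101 probe sets. The WT AKI sample was 180 mg of kidney pooled from 3 wild-type mice, and the EST KO AKI sample was 124 mg pooled from 6 EST KO mice, AKI being acute kidney injury. All were male C57BL/6 mice, 8 weeks old for the wild type and with no separate age given for EST KO, and both groups had 30 min of warm bilateral renal ischemia. Each pool was read on 1 Affymetrix array, so no value has a replicate or a spread between mice, and 1 array a genotype sets how precise a value can be. Uninjured kidney was not analysed here, and the labels name neither the disrupted part of the EST gene nor the cells in which it is lost.

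Intermediate filaments are rope-like cytoskeletal polymers that carry mechanical load. Keratins, the epithelial filaments, form only from pairs of an acidic type I chain (Krt18, Krt19, Krt20) and a basic type II chain (Krt7, Krt8). Krt8 and Krt18 are the pair of simple epithelia such as kidney tubules, and keratins as well as vimentin are known to be induced in tubules after injury. Vimentin (Vim) and desmin (Des) are type III chains of mesenchymal and muscle cells, and lamin A/C (Lmna) lines the inner side of the nuclear envelope.

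Of the 8 members, 6 lay above background on both arrays, and all 6 were lower in the EST KO pool at their brightest probe set, by 1.35-fold to 2.65-fold. Krt20, Vim and Krt18 were at least 2-fold lower. Lmna, Krt7 and Krt8 were lower by less than 2-fold. Des lay near background and Krt19 below it in both pools. The background of an array was set from 129 probe sets of genes mostly silent in kidney, at their 95th percentile (receptors for odour, pheromones and taste, and the hair proteins that bind keratins). This level was 676.1 for WT and 638.3 for EST KO. Intensities are linear and are given as WT then EST KO. A value under background was raised to it before a ratio was taken, so that such a fold is a lower bound. List medians count a bound at that size. In bulk tissue, fewer cells of a type and less RNA per cell cannot be told apart.

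The arrays were alike in scale, with medians of 261.8 and 242.4 and 24.0% and 24.2% of probe sets above background. Sult1e1, which encodes EST, read 472.7 and 17.2, below background in both pools, so it did not check the genotype label. Of 14 proximal tubule markers on the array all lay above background in at least 1 pool. One label field gives liver for the EST KO pool where the others give kidney. Alb, the albumin gene, read 487.9 and 522.3, below background in both, and 7 of the 11 hepatocyte markers on the array were below background in both pools. The other 4 had a summed intensity of 13930 and 22430, most of it from Cyp2e1, an enzyme that male mouse kidney also makes, which read 11569 and 20655 and was 1.79-fold higher in EST KO. Apob and Serpina1c were at least 1.22-fold and at least 1.33-fold lower, and Cps1 was 1.11-fold higher.

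**Figure D1:**
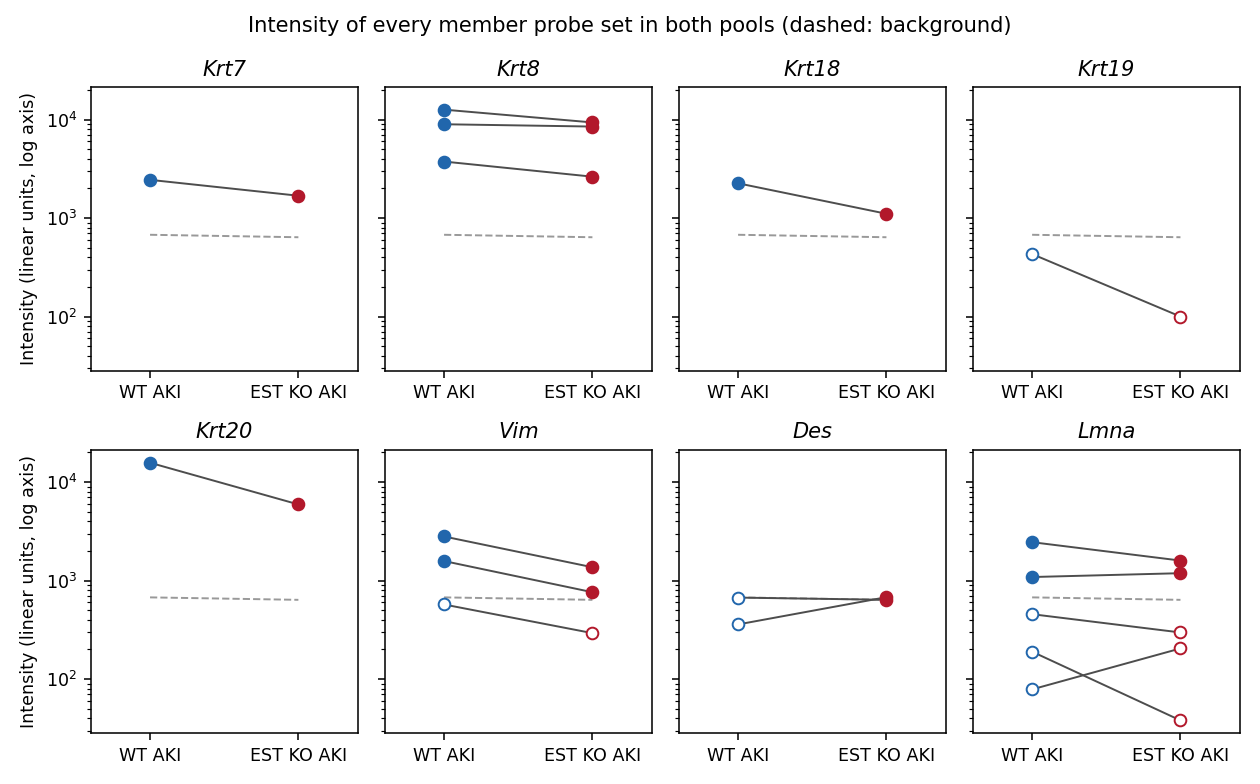
Intensity of every member probe set (log axis, linear units) in the WT AKI pool (blue) and the EST KO AKI pool (red), 1 array each; lines join the same probe set, filled points lie above the background of their array and the dashed line joins the background levels of 676.1 and 638.3. The lines of Krt20, Krt18 and Vim fall towards the EST KO pool, those of Krt8 fall little, and Krt19 and all WT points of Des lie below background.

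Krt20, a type I keratin of intestinal and urothelial cells that damaged tubules also make, read 15736 and 5937. It was 2.65-fold lower in the EST KO pool, the lowest ratio among the members. A single probe set read it, so there was no second measure of this value. Among the 7346 measured genes with an order, Krt20 had the 23rd lowest ratio. Here and below, a gene with only a bound was ranked at that bound. Some such genes may lie lower than a member ranked before them.

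Krt18, the type I chain that pairs with Krt8, read 2253 and 1105 at its only probe set. It was 2.04-fold lower and ranked 95th from the lowest. Both values stood above background, the EST KO value by less than the WT value.

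Krt19, a small type I keratin of ducts and of the collecting system, read 430.8 and 99.9. Both values were below background, and no fold is given. The WT value exceeded 81.4% of the silent-family probe sets and the EST KO value 38.8%. Against a lower background, the 75th percentile of those families, the WT value lay above it and the log2 ratio was a bound of −0.40.

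Krt8, the type II partner of Krt18, had 3 probe sets, all above background in both pools. The brightest read 12602 and 9348 and was 1.35-fold lower in the EST KO pool. The second read 8958 and 8487 and was 1.06-fold lower. The third read 3745 and 2630 and was 1.42-fold lower. All 3 had the same direction, but one of them was close to no difference. The last 2 carry the suffix _x_at, which marks probes that can also bind related sequences, and the RefSeq table lists a pseudogene, Krt8-ps.

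Krt7, a type II keratin of ducts and collecting system, read 2442 and 1684 at its only probe set. It was 1.45-fold lower and ranked 670th from the lowest, with 9.11% of ordered genes below it. The suffix _a_at of this probe set marks several transcripts of a gene.

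The Krt8 and Krt18 chains, which polymerise together, differed in the size of their ratios. The log2 ratio of Krt18 was −1.03 and that of Krt8 −0.43, a gap of 0.60. Repeat probe sets of a gene give a scale for such a gap. For 1663 genes 2 or more probe sets exceeded background on both arrays, and the log2 ratios of the brightest pair of the same gene differed by a median of 0.21, and by 0.81 at the 95th percentile. The gap between the brightest probe sets of the partners was therefore within the range that probe sets of a single gene show, and it was not tested. This depends on the Krt8 probe set. The second, at −0.08, was further from Krt18 than the 0.81 of the 95th percentile, and the third, at −0.51, was nearer than the brightest.

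Vim, the mesenchymal filament gene, had 3 probe sets. The brightest read 2807 and 1368 and was 2.05-fold lower in the EST KO pool. The second, which also carries the suffix _x_at, read 1581 and 762.9 and was 2.07-fold lower. These log2 ratios, −1.04 and −1.05, differed by 0.01. Of the 1663 genes with such a pair, 3.61% had a smaller difference. The third probe set read 572.6 and 293.1, below background in both pools.

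Des, the muscle filament gene, had 2 probe sets near background. The brighter read 672.8 and 638.8, just under and just over the background of their arrays, and these values have no order. The other read 359.3 and 679.3, where the EST KO value was 1.00-fold the WT background. No difference of Des was therefore resolved in either direction.

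Lmna, which gives lamins A and C by alternative splicing, had 5 probe sets, of which 2 lay above background in both pools. The brightest read 2457 and 1599 and was 1.54-fold lower in the EST KO pool. The next read 1088 and 1190 and was 1.09-fold higher. These disagreed by 0.75 in log2 ratio, a gap exceeded by 5.83% of genes with such a pair. The other 3 probe sets read 456.4 and 297.7, 190.0 and 38.1, and 78.7 and 204.9, all below background. The lower level of Lmna in the EST KO pool thus rested on 1 of its probe sets.

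**Figure D2:**
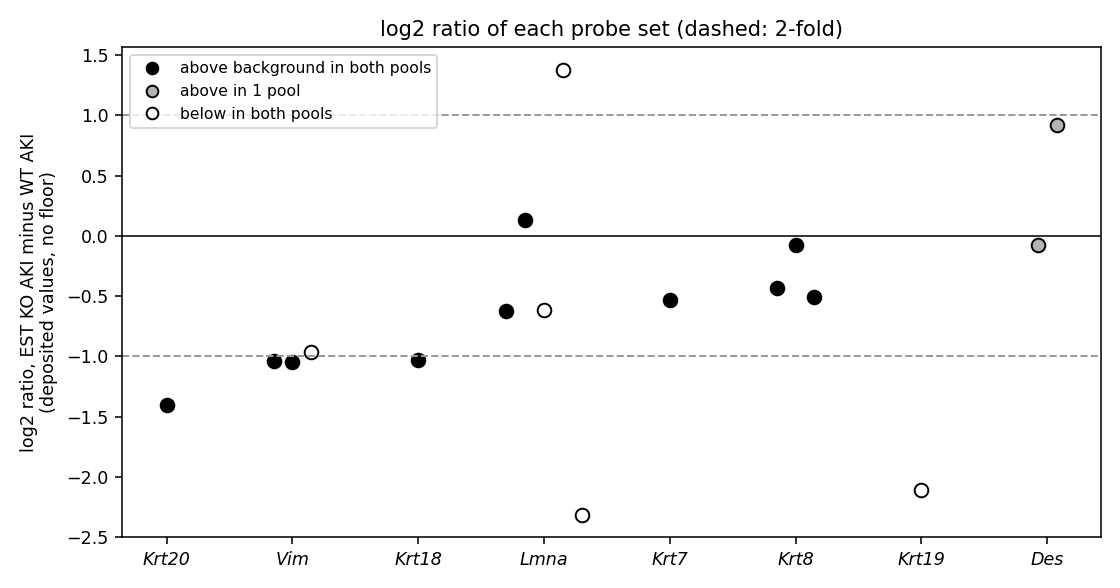
log2 ratio (EST KO AKI minus WT AKI) of the 17 member probe sets from the deposited values with no floor, ordered within a gene from brightest to dimmest; black points lie above background in both pools, grey in 1 pool and white in neither. The black points of Vim coincide near −1.04, those of Krt8 spread from −0.51 to −0.08, and those of Lmna lie on both sides of 0.

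Over all member probe sets, 10 lay above background in both pools, of which 9 had the lower value in EST KO and 1 the higher. Of the 10, 4 were at least 2-fold lower, and they belonged to Krt20, Krt18 and Vim. Another 2 probe sets, both of Des, lay above background in 1 pool, and 5 lay below it in both.

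Among genes, 3 of the 7 measured members (42.9%) were at least 2-fold lower, beside 1.4% of the 7480 measured genes. With no floor the member count stayed at 3, and 2.63% of the 7480 genes were at least 2-fold lower. A gene counted as measured if its brightest probe set lay above background in at least 1 pool. None of the members was at least 2-fold higher, beside 3.02% of measured genes. Counting any size, 6 of the 7 were lower, beside 54.6% of measured genes, and 0 were higher, beside 43.6%. The median log2 ratio of the 7 was −0.62, and that of all measured genes −0.05. The member median was the value of Lmna at its brightest probe set, and the 7 include Des, which had no order. For the 6 members above background in both pools the median was −0.82, and for the 6115 genes of that kind −0.05. The members are a chosen list, and with 1 array a genotype these shares carry no test.

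Vim and Krt18 lay close to the 2-fold line. After centring on the median gene their log2 ratios were −0.98 each, and with a pseudocount equal to background −0.80 and −0.75. Krt18 was also under 2-fold with the trend with level removed (−0.98), and Vim with the mean of its probe sets (−0.72). Krt20 was beyond 2-fold under all 8 alternatives, from −1.57 to −1.32, but not all of them could move it. Its single probe set lay above background in both pools and has no suffix. The lower background, no floor, the mean of probe sets and the suffix filter therefore left it at −1.41.

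**Figure D3:**
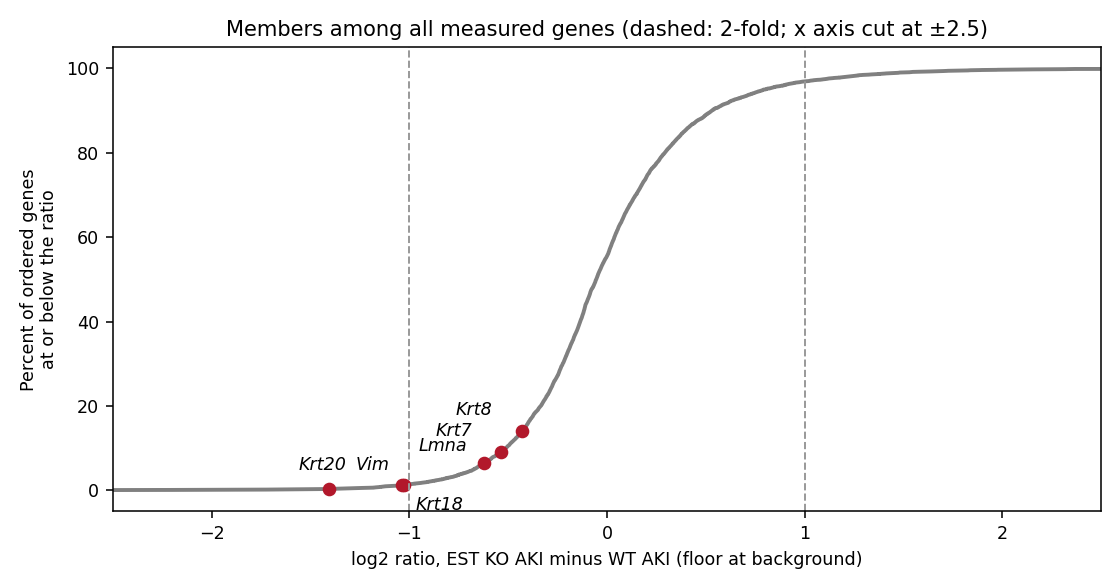
Share of the 7346 ordered genes (percent, y axis) at or below each log2 ratio (EST KO AKI minus WT AKI, x axis), with the 6 ordered members as red points on the curve. All 6 lie in the lower left, from rank 23 (Krt20) to rank 1034 (Krt8), and Krt20, Vim and Krt18 lie left of the 2-fold line. Genes with only a bound are placed at that bound.

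The promoters of Krt20, Vim, Krt18 and Krt8 are shown because the first 3 were the members at least 2-fold lower and the last is the partner of Krt18. Each run is the 250 bases before the transcription start in RefSeq, build GRCm38.p6, 5′ to 3′ on the strand of the gene. Capitals mark TATAAA (the TATA box), CCAAT (the CCAAT box) and AGGTCA (a half-site bound by several nuclear receptors), searched on both strands, as was TGANTCA (an AP-1 site), which none of the runs held. Krt20 lies at chr11:99438154-99438403 on the minus strand, Vim at chr2:13574061-13574310 on the plus strand, Krt18 at chr15:102027966-102028215 on the plus strand and Krt8 at chr15:102004343-102004592 on the minus strand.
Krt20: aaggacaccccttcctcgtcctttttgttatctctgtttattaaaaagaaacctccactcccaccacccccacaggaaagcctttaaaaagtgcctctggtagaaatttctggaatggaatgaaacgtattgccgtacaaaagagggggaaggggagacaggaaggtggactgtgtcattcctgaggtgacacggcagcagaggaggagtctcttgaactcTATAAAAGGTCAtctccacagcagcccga
Vim: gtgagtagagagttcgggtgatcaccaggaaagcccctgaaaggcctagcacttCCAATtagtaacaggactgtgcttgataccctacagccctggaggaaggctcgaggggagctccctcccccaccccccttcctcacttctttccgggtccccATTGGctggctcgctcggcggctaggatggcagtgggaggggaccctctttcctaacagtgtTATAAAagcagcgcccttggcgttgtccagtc
Krt18: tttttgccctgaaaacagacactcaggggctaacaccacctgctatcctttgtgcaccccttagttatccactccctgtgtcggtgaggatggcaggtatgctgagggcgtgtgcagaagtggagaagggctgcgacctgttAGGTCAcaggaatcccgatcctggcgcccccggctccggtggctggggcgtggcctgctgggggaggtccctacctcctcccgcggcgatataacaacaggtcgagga
Krt8: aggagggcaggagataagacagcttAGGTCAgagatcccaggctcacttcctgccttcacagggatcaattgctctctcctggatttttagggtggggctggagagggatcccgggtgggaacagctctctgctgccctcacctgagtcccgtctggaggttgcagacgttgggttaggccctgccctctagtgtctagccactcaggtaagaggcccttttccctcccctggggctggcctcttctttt

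The Krt20 and Vim runs both held TATAAA, beginning 29 and 32 bases before the start. This motif was found in 12.4% of 32851 RefSeq promoters of the same length. In Krt20 the TATA box was followed directly by AGGTCA, without overlap. AGGTCA was also present in Krt18 and Krt8, 108 and 225 bases before the start, and in 14.0% of all promoters. A Lmna promoter, not shown, held it as well, so that 4 of the 8 member promoters had it. Vim had CCAAT on both strands, a motif also held by a Lmna promoter and present in 33.8% of promoters. The full estrogen response element, read by estrogen receptors and searched as GGTCA, then 3 bases of any kind, then its reverse complement, was in none of the 8 runs of the 7 members matched in the table and in 0.0639% of all promoters. TGANTCA was in none of the 8 runs either, beside 6.75% of promoters. No run was matched for Krt19. The motifs are letters in a window, and no binding was measured.

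Genes beside the members on the chromosome did not share one direction. Krt8 and Krt18 are direct neighbours on chromosome 15 and were both lower. Eif4b, a translation initiation factor gene on the other side of Krt18, read 5399 and 5051, a ratio of 1.07-fold lower, while the dimmer probe sets (2920 and 3412, 946.4 and 1308) had the other direction. Krt12, the cornea keratin gene next to Krt20 on chromosome 11, had 280.0 and 961.8, at least 1.42-fold higher in the EST KO pool. Its other probe set read 213.3 and 878.6, in the same direction. St8sia6, a sialyltransferase gene beside Vim, had 549.7 and 1288, at least 1.90-fold higher. Next to Lmna, Sema4a was 1.15-fold higher and Mex3a 1.18-fold lower, and next to Des, Dnpep was 1.42-fold lower. Krt23, Krt15, Krt80, Trdmt1 and Speg, other neighbours, lay below background in both pools.

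The remaining keratins were mostly not detected. Of 48 on the list, 41 were on the array and 6 were measured, of which 3 were lower, 2 higher and 1 without order. Their median log2 ratio was −0.10. None was shown to be 2-fold apart, but Krt12 has only a bound, since its WT value lay below background, and passed 2-fold with the lower background or with no floor. Besides Krt12 the list included Krt42, which read 3219 and 2699 and was 1.19-fold lower. This Krt42 probe set carries the suffix _x_at, so it can also bind related sequences. Krt32 was at least 1.23-fold lower and Krt6a at least 1.10-fold lower, both below background in the EST KO pool. The stratified-epithelium keratins Krt5 and Krt14 were below background in both pools.

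Of 15 other intermediate filament genes, 3 were measured, all lower, with a median log2 ratio of −0.39. Nes, the nestin gene of progenitor cells, podocytes and endothelium, read 2817 and 1663 and was 1.69-fold lower, and its second probe set, 1619 and 974.0, had a log2 ratio of −0.73 against −0.76. Lmnb1, a B-type lamin gene, read 763.8 and 657.0 and was 1.16-fold lower. Sync, a partner of desmin, was at least 1.31-fold lower. Nes and Lmnb1 were under 2-fold, and Sync has only a bound. The median of −0.39 was that bound, and with no floor the median was −0.59.

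Linkers of the filaments had both directions. Of 19 plakin and desmosome genes, 13 were measured, 6 lower and 7 higher, with a median log2 ratio of 0.01 and none 2-fold apart. Ppl, the periplakin gene, was 1.56-fold lower (1790 and 1147), Dsp, the desmoplakin gene, 1.50-fold lower (1148 and 764.0), Macf1, which links actin and microtubules, 1.41-fold lower, and Plec, the plectin gene, 1.32-fold lower (6242 and 4735). Dst, the dystonin gene, was nearly as far in the other direction, at 1.31-fold higher (1331 and 1747), with a dimmer probe set at 689.1 and 668.1. The desmosome genes Jup and Perp were 1.11-fold and 1.20-fold higher. The probe sets of Pkp2, a plakophilin gene, disagreed, the brightest at 1.18-fold higher (1332 and 1570) and the second at 1.45-fold lower (1146 and 791.7).

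Proteins that fold or regulate keratins were measured for 8 of 14 genes, 5 lower and 3 higher, with a median of −0.13. Grhl2, an epithelial transcription factor gene, was 1.54-fold lower (1151 and 747.7). Dnajb6, whose product is a co-chaperone for keratins, was 1.44-fold higher (1523 and 2194), and its second probe set read 1507 and 1494. Csnk1a1, a casein kinase gene, was 1.23-fold higher. Klf4, a transcription factor gene, was at least 1.22-fold lower, with its other probe set opposed (509.9 and 686.0).

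Lamina partners of Lmna were measured for 14 of 21 genes, 8 lower, 5 higher and 1 without order, with a median of −0.11. Tmpo, which encodes the LAP2 proteins that bind lamins, was 1.79-fold lower (2085 and 1168), although a dimmer probe set read 638.4 and 735.6. Lemd2 was 1.54-fold lower, Emd, the emerin gene, 1.42-fold lower, and Sun2, which couples the lamina to the cytoskeleton, 1.35-fold lower. Zmpste24, the protease that matures prelamin A, was 1.34-fold higher. No gene of this list was 2-fold apart.

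**Figure D4:**
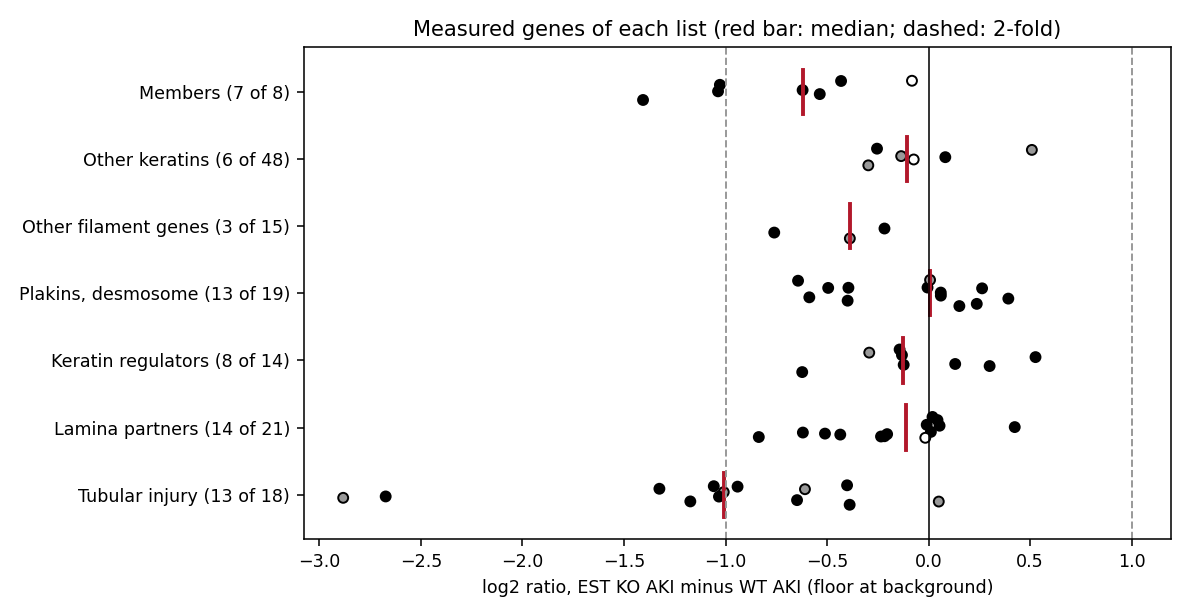
log2 ratio (EST KO AKI minus WT AKI, floor at background) of the measured genes of each list, 1 point a gene, with the list median as a red bar; black points lie above background in both pools, grey points are bounds and white points have no order. The medians of the members (−0.62) and of tubular injury genes (−1.01) lie left of those of the linker, regulator and lamina lists, which stay between −0.13 and 0.01. Medians count a bound at its size.

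Other genes known to be induced in injured tubules had the direction of the keratins. Of 18 on the list, 13 were measured, 12 of them lower and 1 higher, and 7 reached 2-fold lower, with a median of −1.01. They included the fibrinogen chain genes Fgg (at least 7.38-fold), Fga (6.38-fold) and Fgb (1284 and 7.5, at least 2.01-fold), Cryab, a small heat shock protein gene (2.51-fold), and Sox4, a transcription factor gene (2.26-fold). The EST KO values of Fgg and Fgb were below background, so their folds are bounds and set no order against the others. The median of −1.01 was the bound of Fgb, and with no floor the median was −1.03. Proximal tubule markers had the other direction, with all 14 on the array higher at their brightest probe set, 6 of them at least 2-fold, and a median of 0.87. The probe sets of Kap disagreed, the brightest at 1.15-fold higher (33733 and 38640) and the other at 1.26-fold lower (39386 and 31174). Pdzk1 (7.71-fold), Slc13a3 (6.64-fold), Slc22a6 (6.11-fold) and Cubn (2.79-fold) had the largest differences among those above background in both pools. Slc5a12 (77.3 and 766.7, at least 1.13-fold) was below background in WT, so its fold sets no order against them. The summed intensity of this list was 100867 for WT and 169780 for EST KO. Loop of Henle and distal tubule markers were measured for 8 of 9 genes, 2 lower and 6 higher, with a median of 0.35 and measured sums of 40945 and 53412. Egf had a log2 ratio of 2.32, and Slc12a1 was 2.28-fold, Pvalb at least 1.52-fold and Slc12a3 1.36-fold higher. The part of these cells in the member ratios was not tested.

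Markers of other cells that make these filaments also differed. Fibroblasts, endothelium, leukocytes and podocytes all contain vimentin. All 8 measured endothelial genes of 10 were lower, with a median log2 ratio of −0.59 and summed measured intensities of 11520 and 8075, among them Nos3 (at least 1.93-fold) and Eng (1.68-fold). The second probe set of Eng read 1207 and 1175, 1.03-fold lower. Egfl7 was 1.58-fold and Plvap 1.54-fold lower. All 7 measured leukocyte genes of 13 were lower, with a median of −0.35 and sums of 10660 and 7257. This median was the bound of Cd68. S100a8 was 3.22-fold lower (2092.5 and 649.3), the only one at least 2-fold lower. Its EST KO value stood just above the background of 638.3. Tyrobp was 1.88-fold, S100a9 1.42-fold and Cd68 at least 1.28-fold lower. Ptprc, the general leukocyte marker, was below background in both pools. Of 12 fibroblast genes 6 were measured, 4 lower and 2 higher, with a median of −0.31 and sums of 10956 and 8848. Col3a1 was 1.68-fold and Sparc 1.67-fold lower, the latter 2.23-fold at its other probe set, Fbln1 was at least 1.31-fold lower, Dcn was 1.20-fold higher, and Col1a1 and Pdgfra were below background in both pools. Podxl was the only podocyte gene measured of 8, at 1.34-fold lower, and Nphs1 was below background in both pools. The part of these cells in the Vim ratio was not tested.

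Smooth muscle cells and pericytes are the main kidney cells with desmin. Of 13 genes on that list 8 were measured, 5 lower and 3 higher, with a median of −0.28 and sums of 14602 and 12762. Tagln was 1.83-fold lower (1182 and 646.7), Rgs5 1.44-fold, Acta2, smooth muscle actin, 1.42-fold and Pdgfrb 1.38-fold lower. The 3 higher were Cspg4, at least 1.32-fold (612.0 and 890.0), Smtn, 1.22-fold, and Mylk, 1.11-fold. The second probe set of Mylk was opposed, at 1.16-fold lower (935.8 and 805.8), and its dimmest read 599.7 and 705.4. The WT value of Cspg4 was below background, so its bound sets no order against the others. Myh11 and Cnn1 were below background in both pools.

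Krt7, Krt19 and Krt20 are also keratins of the urothelium that lines the renal pelvis. Of 8 urothelial genes only Upk1a was measured, at 1079 and 1144, which is 1.06-fold higher. The uroplakin genes Upk1b, Upk2, Upk3a and Upk3b were below background in both pools. Of 12 collecting duct genes 7 were measured, 4 lower, 2 higher and 1 without order, with a median of −0.21 and sums of 13883 and 10582. This median was the bound of Scnn1b. Aqp2, the water channel of principal cells, was 1.57-fold lower (6236 and 3964). Aqp4, another water channel gene, was at least 1.57-fold lower (1003 and 211.1) and Fxyd4, a sodium pump regulator gene, 1.35-fold lower. Hsd11b2, which inactivates glucocorticoids, was 1.22-fold higher (1180 and 1442). Aqp3, the other gene counted as higher, was 1.03-fold higher (1321 and 1361), but its second probe set was 1.60-fold lower (1074 and 671.4). The part of these cells in the Krt7 ratio was not tested.

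**Figure D5:**
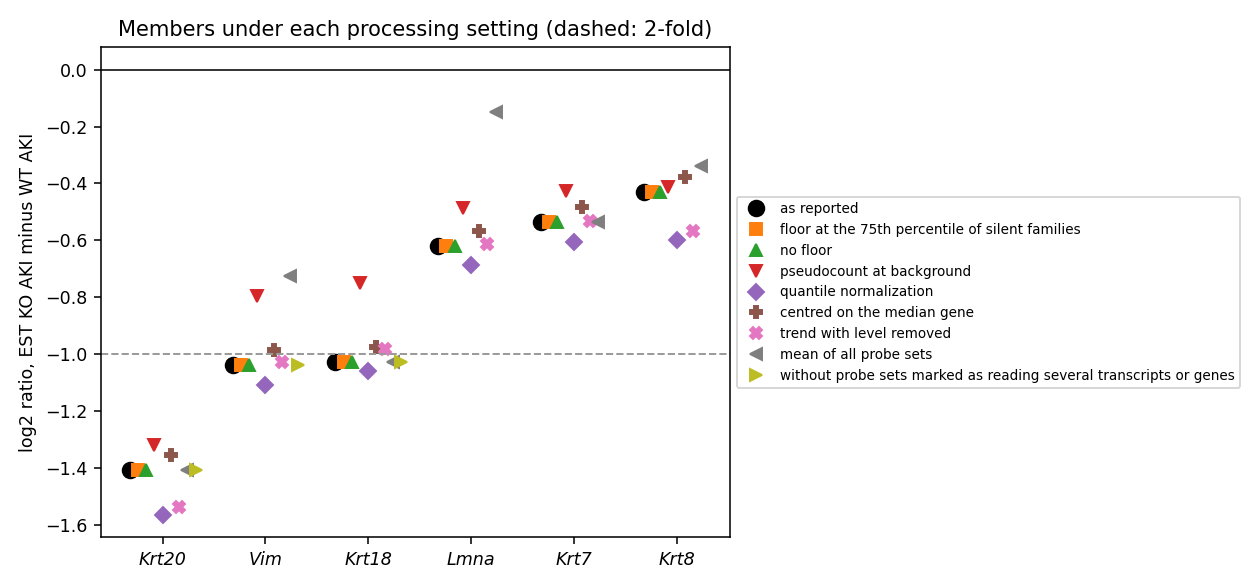
log2 ratio (EST KO AKI minus WT AKI) of the 6 ordered members under the reported setting (black circle) and the alternative processing settings (other symbols). All symbols lie below 0, Krt20 stays below the dashed 2-fold line throughout, and Vim and Krt18 lie on both sides of it.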

How the data were processed

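The authors' deposited table held 1 linear intensity per probe set and array. Biotinylated cRNA was hybridised to an Affymetrix array, per the labels' protocols; scanner software and probe summary: not given in the sources used here. From the values, each array had been scaled to a mean of 500.0 after the lowest and highest 2% were dropped, and no further scaling was applied. A single gene was named for 34958 probe sets from GEO's platform annotation, with several for 932 and none for 9211, and 34754 matched a RefSeq symbol (GRCm38.p6) by Entrez ID. Each gene was read from its brightest probe set. With 1 array per group there was no test, and a 2-fold difference was the size counted. The ratio code was checked on simulated data. Python 3.11.15, pandas 2.3.3 and statsmodels 0.14.6 were used. Alternatives covered dim values, scaling and probe sets. The members, lists and rules were chosen with earlier results of these data known. All members were named, and in each other list up to 4 measured genes with the largest ratios, bounds taken at their size. Named outside that rule were neighbours, Sult1e1, Alb, markers below background, and further desmosome, lamina, injury, smooth muscle, proximal tubule and collecting duct genes.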

Additional observations from a re-analysis of the deposited data

How the results depend on the processing

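No paired analysis was possible because each group was 1 pool on 1 array. Of 229 values under 8 alternatives, 219 stayed within the probe set spread (SD 0.28 in log2 ratio) or within 1.5 times the reported count, and none changed sign after a 2-fold difference. Part of this was built in, since some settings cannot alter a member with a single probe set above background. Many of the counts were 0 and stayed 0. The share that stayed is therefore no measure of stability. The number of members at least 2-fold lower was 1 with a pseudocount and 1 after centring. The log2 ratio of Krt18 was −0.75 with a pseudocount. With the mean of all probe sets those of Lmna and Vim were −0.15 and −0.72, a mean that includes dim probe sets held at background. Without probe sets marked as reading several transcripts or genes, 4 members were measured, 3 of them lower, with a median of −1.03, and Krt7, Krt8 and Lmna gave no value. Krt12 made the count of other keratins at least 2-fold higher 1 with the 75th percentile background and 1 with no floor. Intensities near background, those of Des and Krt19, set no direction. The median of plakin and desmosome genes ran from −0.07 to 0.08 and has no settled sign.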
